A study of Mus musculus with 2 samples.

Results

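Protease inhibitors were examined in the RNA of mouse cavernous endothelial cells (MCECs), the cells that line the blood spaces of the penis. The genes are Slpi and 8 members of the serpin family, namely Serpina3n, Serpina3g, Serpinb2, Serpinb6a, Serpinb9, Serpine2, Serpinf1 and Serpinh1. They were chosen by gene symbol with their values in these same libraries already known, so their differences are given as a description with no test. The 9 genes stand among 23183 gene symbols in the files, and the family as a whole has 63 symbols. There are 2 libraries, 1 for each condition. HG+HBS came from primary MCECs of early passage kept in high glucose with HEPES-buffered saline (HBS), the vehicle. HG+PC-NVs came from MCECs in the same glucose given PC-NVs, nanovesicles obtained by pressing cultured mouse cavernous pericytes through filters. The methods give 30 mM glucose for 72 hours after serum starvation in both conditions, with RNA taken 24 hours after PC-NVs at 1 µg/mL, whereas 5 days of glucose stand in the labels. The methods name C57BL/6J male mice for the study, and do not say how many mice or cultures stand behind each library.

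Serpins are a large family of proteins that share a fold with an exposed loop. Most of them trap a serine or cysteine protease when it cuts that loop, which inactivates both proteins for good, while a few have lost this activity and act as chaperones or signals. Slpi, secretory leukocyte peptidase inhibitor, belongs to another family, built from small WAP domains, and blocks the neutrophil proteases elastase and cathepsin G. In vessels such inhibitors hold thrombin, the plasminogen activators and proteases released by leukocytes in check.

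The values are normalized FPKM, fragments scaled to transcript length and library size, so levels can be set beside each other between genes. A log2 ratio here is the difference of log2(FPKM + 1) between HG+PC-NVs and HG+HBS, and genes counted as past 2-fold are counted on it. A fold or ratio given for a gene is the plain ratio of FPKM. Its 95% interval (Clopper-Pearson, from estimated fragment numbers) covers counting error only and says nothing of the spread between cultures, which 1 library per condition cannot show. Low values in the files put the depth near 14700000 fragments (HG+HBS) and 12800000 fragments (HG+PC-NVs). Over the 11785 genes whose log2 values averaged 1 or more, the median log2 ratio was -0.0091, and the 5th and 95th percentiles were -0.50 and 0.61.

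The markers of the labelled cell type were low. Of 14 endothelial markers, 9 were under 1 FPKM in both libraries, Pecam1 was at 1.05 and 0.938 FPKM and Cdh5 at 5.05 and 5.73 FPKM in HG+HBS and HG+PC-NVs, and 0 were listed at 0 in both libraries. The highest of the 14 were Esam, at 17.4 and 11.7 FPKM, and Egfl7, at 9.48 and 8.57 FPKM, and the list summed to 36.8 and 29.5 FPKM. All 8 fibroblast markers were above 1 FPKM, summing to 2079 and 2426 FPKM. Among them, Dcn was at 623 and 1283 FPKM and Thy1 at 549 and 412 FPKM. In HG+PC-NVs 2 of the 8 were higher and 6 lower, with a median log2 ratio of -0.21, and Dcn alone was past 2-fold. Of 10 pericyte markers, 8 passed the filter, 3 higher and 5 lower, and the list summed to 103 and 94.1 FPKM. Past 2-fold higher were 2 of them, Rgs5 at 1.69 and 7.23 FPKM and Kcnj8 at 7.98 and 20.4 FPKM, and 0 were past 2-fold lower. Among the 5 lower, Anpep was at 26.7 and 13.7 FPKM and Cspg4 at 20.4 and 12.2 FPKM. Des, which did not pass the filter, was at 1.07 and 0.137 FPKM, or about 44.1 and 4.92 fragments. Of 6 smooth muscle markers, 3 passed, all lower and 2 of them past 2-fold, and the list summed to 71.0 and 36.9 FPKM. The part of other cell types in the levels given here was not tested, and less RNA per cell cannot be told apart from fewer cells of a type.

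Promoter sequences are shown for the chosen genes past 2-fold, all of them higher with PC-NVs. Each runs from 250 bases before to 50 bases after the RefSeq start site on GRCm38, in the direction of the gene, and the capitals mark matches to the motifs searched. Slpi lies on the reverse strand at chr2:164356458-164356757, Serpina3g on the forward strand at chr12:104235897-104236196, and Serpinb2 on the forward strand at chr1:107511173-107511472, the first of its 2 windows.
Slpi: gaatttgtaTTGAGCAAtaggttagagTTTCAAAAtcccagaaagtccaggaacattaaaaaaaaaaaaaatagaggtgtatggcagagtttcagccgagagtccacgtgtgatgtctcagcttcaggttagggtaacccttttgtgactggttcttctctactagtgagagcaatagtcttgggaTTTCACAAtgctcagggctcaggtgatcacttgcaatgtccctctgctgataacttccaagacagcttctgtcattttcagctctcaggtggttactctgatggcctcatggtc
Serpina3g: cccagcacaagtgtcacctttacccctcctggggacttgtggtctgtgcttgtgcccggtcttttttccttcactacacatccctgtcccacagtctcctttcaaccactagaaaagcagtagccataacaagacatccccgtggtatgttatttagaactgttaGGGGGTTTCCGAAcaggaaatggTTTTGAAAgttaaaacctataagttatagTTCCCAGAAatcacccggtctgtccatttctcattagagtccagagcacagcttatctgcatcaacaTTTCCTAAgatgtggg
Serpinb2: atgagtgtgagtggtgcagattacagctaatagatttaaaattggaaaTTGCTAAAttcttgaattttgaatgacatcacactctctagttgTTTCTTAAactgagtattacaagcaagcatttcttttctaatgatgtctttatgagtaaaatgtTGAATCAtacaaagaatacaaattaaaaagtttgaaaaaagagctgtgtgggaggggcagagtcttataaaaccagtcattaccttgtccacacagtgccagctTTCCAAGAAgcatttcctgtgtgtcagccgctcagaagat
The motifs, searched on both strands, were the consensus of NF-kB, TTNNGNAA for C/EBP, TGANTCA for AP-1, TTCNNNGAA for STAT and GAANNTTC for the heat shock element. Serpina3g carried an NF-kB match from -85 to -76, which overlaps a C/EBP match from -80 to -73, and a STAT match from -33 to -25, with positions counted from the start site. Serpinb2 carried an AP-1 match from -94 to -88 and a STAT match from 11 to 19. Slpi carried 3 matches to C/EBP and none to the other 4 motifs in this window. Among all 32544 promoter windows, 4.53% held the NF-kB motif, 40.7% C/EBP, 7.79% AP-1, 8.33% STAT and 7.89% the heat shock element. Of the 9 chosen genes, 2 held NF-kB (Serpina3g and Serpinh1), 7 held C/EBP, 1 AP-1, 3 STAT (Serpina3g, Serpinb2 and Serpinb6a) and 0 the heat shock element. A gene counted if any of its windows matched, and the 9 genes have 11 windows, with 2 each for Serpinb2 and Serpinb6a. These counts per gene are therefore not on the same footing as the shares per window. A match is a stretch of letters and was not tested for binding.

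On the log2(FPKM + 1) scale, 3 of the 9 genes were past 2-fold in the direction of HG+PC-NVs and 0 in the other. Of all 11785 genes, 2.38% were past 2-fold higher and 0.798% past 2-fold lower. Since the genes were picked with these values known, nothing is read from that contrast. All 9 passed the filter on low values, with 7 higher and 2 lower and a median log2 ratio of 0.35. Of all 11785 genes, 5707 were higher and 6078 lower, and nothing is read from that contrast either. Serpinb6a and Serpinh1, counted as higher, turned lower after quantile normalization, and the intervals of Serpinh1 and Serpinb9 span 1. Slpi, Serpinb2 and Serpina3g were the 3 past 2-fold. Serpine2 stood at 1.62-fold, and the other 5 lay between 0.869-fold and 1.28-fold.

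**Figure D1:**
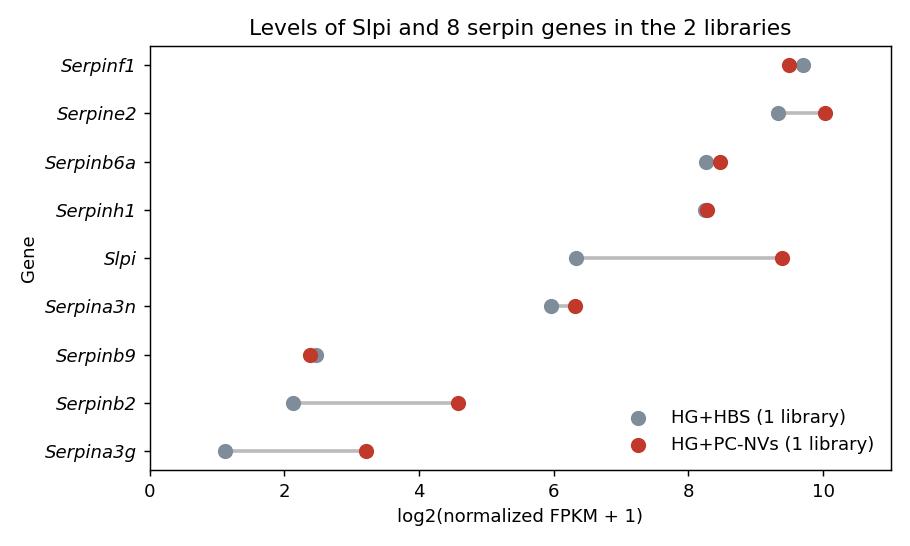
Level of each of the 9 genes in the 2 libraries, as log2(normalized FPKM + 1) on the horizontal axis, with genes ordered by their level in HG+HBS and 1 point per library. The long grey lines belong to Slpi, Serpinb2 and Serpina3g, while Serpinh1 and Serpinb9 have nearly coinciding points. The order of the points of Serpinb6a and Serpinh1 flips after quantile normalization.

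Slpi was listed at 79.1 FPKM in HG+HBS against 667 FPKM in HG+PC-NVs (log2 values of 6.32 and 9.38). The level in HG+PC-NVs was 8.43-fold that in HG+HBS (95% interval 7.82 to 9.11 for counting error, from about 763 and 5581 fragments), and the log2 ratio was 3.06. Slpi (ENSMUSG00000017002.14) spans chr2:164354070-164389095 of GRCm38 on the reverse strand in GENCODE M21, with 4 exons in its longest coding transcript. RefSeq ends the gene at 164356507. By level, Slpi moved from place 987 to place 138 among the 11785 genes. By log2 ratio it held place 19. Of the 792 other genes within 0.5 log2 units of Slpi in HG+HBS, 2 had a log2 ratio at least as large. The median of these genes was 0.021 and their 95th percentile 0.59. Slpi was chosen with its ratio in these libraries known, so nothing is read from its place among them. In HG+HBS its level was below those of Serpinb6a and Serpinh1, and in HG+PC-NVs it was above both.

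The genes nearest to Slpi over the 2 libraries, by distance between their pairs of log2 values, were Ccl7, C3, H2-K1, Ptges and Fam162a. Ccl7, a monocyte chemokine, was listed at 95.2 and 618 FPKM, a distance of 0.29 on the log2 scale. C3, the central complement protein, was listed at 71.97 and 499 FPKM, a distance of 0.44. The other 3 lay 1.13 to 1.36 away, with log2 ratios of 1.41 to 1.71. A likeness over 2 libraries rests on 2 points for each gene.

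**Figure D2:**
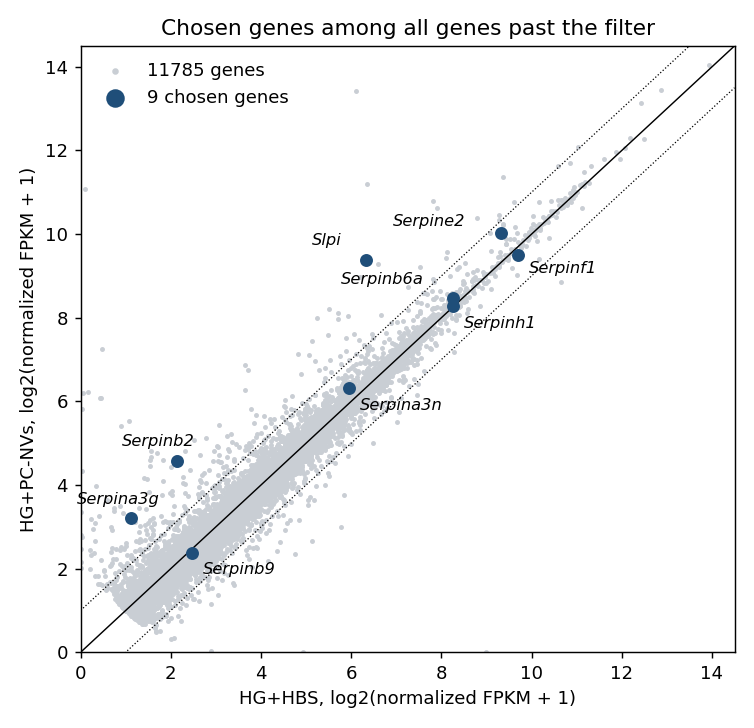
Each grey point is 1 of the 11785 genes past the filter, at its log2(normalized FPKM + 1) in HG+HBS (horizontal axis) and HG+PC-NVs (vertical axis). The solid line marks equal levels and the dotted lines a 2-fold difference on this scale, and Slpi, Serpinb2 and Serpina3g (dark points, with the other 6 chosen genes) lie above the upper dotted line.

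The proteases that Slpi is best known to block were at or near the floor of 3 fragments in both libraries. Elane, neutrophil elastase, was listed below 0.001 FPKM in HG+HBS and at 0 in HG+PC-NVs, and Ctsg, cathepsin G, at 0 in both. Of 12 leukocyte serine proteases, 4 were listed at 0 in both libraries and 11 were under 1 FPKM in both. The exception was Prtn3, proteinase 3, at 1.06 and 0.413 FPKM, or about 12.5 and 4.24 fragments. Their sum was 1.38 FPKM in HG+HBS against 1.37 FPKM in HG+PC-NVs.

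Slpi is made by epithelial cells, neutrophils and macrophages as well, so their markers are given beside it. Of 8 epithelial markers, 7 were under 1 FPKM in both libraries, Cdh1, Krt5, Krt14 and Cldn4 were listed at 0 in both, and the list summed to 10.8 FPKM in HG+HBS against 2.70 FPKM in HG+PC-NVs. Of 9 neutrophil markers in the files, 7 were under 1 FPKM in both, Mpo and Retnlg were listed at 0 in both, and the list summed to 1.36 and 48.5 FPKM. Camp, a cathelicidin, had the highest level of the list in both libraries, at 0.871 and 41.4 FPKM, or about 6.89 and 284 fragments. S100a9 was at 0.00323 and 5.96 FPKM, or about 0.0142 and 22.7 fragments, so under the floor of 3 fragments in HG+HBS. Mmp8 was at 0.273 and 0.847 FPKM, or about 8.86 and 23.8 fragments. Ngp was lower, at 0.0709 and 0 FPKM, or about 1.05 and 0 fragments. Of 10 macrophage markers, 5 were higher and 5 lower in HG+PC-NVs, with sums of 338 and 555 FPKM. Cd14 was at 36.6 and 252 FPKM and Adgre1 at 7.44 and 42.5 FPKM, while Mrc1 was past 2-fold lower, at 3.76 and 1.27 FPKM. Csf1r was at 8.39 and 6.20 FPKM and Lyz2 at 212 and 193 FPKM. The part of these cells in the level of Slpi was not tested.

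Serpinb2 and Serpina3g, the other pair past 2-fold, act mainly inside cells. Serpinb2, plasminogen activator inhibitor 2, blocks urokinase. It was listed at 3.37 FPKM in HG+HBS against 22.95 FPKM in HG+PC-NVs, a ratio of 6.81 (95% interval 5.42 to 8.65 for counting error, from about 87.4 and 516 fragments) and a log2 ratio of 2.45. The gene lies at chr1:107511423-107535478, forward strand. Its values come in 2 rows, as RefSeq has 2 curated transcripts. The first went from 2.00 to 6.87 FPKM, and the second from 1.37 to 16.1 FPKM, so that the second held 40.7% of the gene's FPKM in HG+HBS against 70.1% in HG+PC-NVs. Both rows were higher in HG+PC-NVs, by 3.44-fold and 11.7-fold. How reads are divided between such similar transcripts is an estimate, so the sum is the firmer value.

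Serpina3g blocks lysosomal cathepsins that leak into the cytoplasm. It was listed at 1.17 FPKM in HG+HBS against 8.23 FPKM in HG+PC-NVs, a ratio of 7.06 (95% interval 4.69 to 11.02 for counting error). About 27.2 and 166 fragments stand behind these values, the fewest among the 9 genes. The log2 ratio was 2.09 with a pseudocount of 1 and 2.72 with a pseudocount of 0.1. The gene has 5 exons in its longest coding transcript and lies at chr12:104236245-104241939, forward strand.

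Serpina3g stands in a row of 11 Serpina3 genes in the files, which spans 302 kb of chromosome 12 from 104112724 to 104414329. Serpina3f and Serpina3h lie on either side of it and Serpina3i beyond Serpina3h, and none of them is among the 9 genes. All of them had higher values in HG+PC-NVs, with Serpina3h at 0.0371 and 0.258 FPKM. Serpina3f was at 0.112 and 1.98 FPKM, or about 3.21 and 49.2 fragments, a ratio of 17.7 with an interval of 5.88 to 82.4. Serpina3i was at 0.309 and 2.52 FPKM, a ratio of 8.15 with an interval of 4.03 to 18.6. Serpina3n, at the end of the row, held 96.5% of the summed FPKM of the 11 genes in HG+HBS against 84.95% in HG+PC-NVs. The gene lies at chr12:104406729-104414329, forward strand, and encodes a secreted inhibitor of leukocyte elastase, granzyme B and cathepsin G. Serpina3n was listed at 61.2 FPKM in HG+HBS against 78.3 FPKM in HG+PC-NVs, a ratio of 1.28 (interval 1.20 to 1.37). The 10 genes without Serpina3n summed to 2.23 and 13.9 FPKM, a ratio of 6.21.

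**Figure D3:**
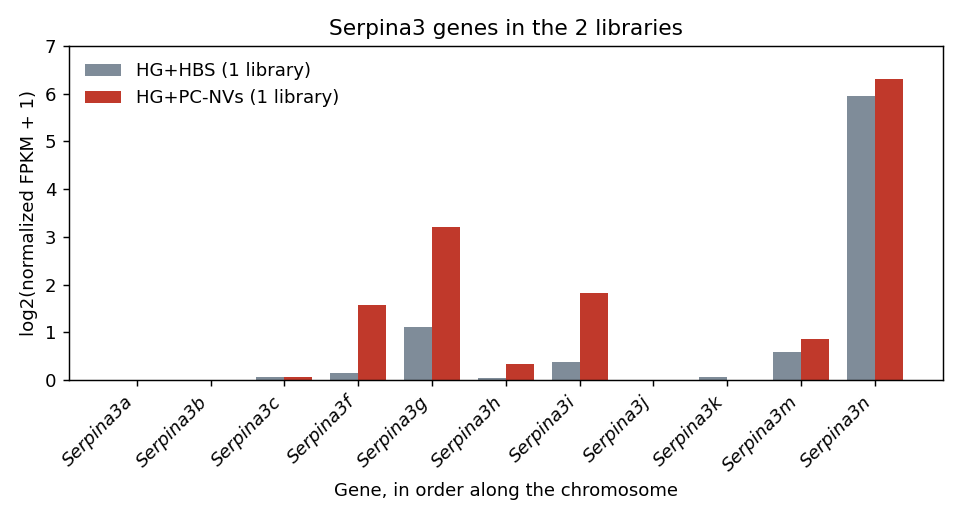
Level of the 11 Serpina3 genes as log2(normalized FPKM + 1), in their order along chromosome 12, with 1 bar per library. Serpina3n has the tallest bars in both libraries with a small difference between them, and the difference is wider for Serpina3f, Serpina3g and Serpina3i.

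These genes are close copies. Over the aligned part of their transcripts, Serpina3g was 88.6% identical to Serpina3f, 87.4% to Serpina3i and 80.4% to Serpina3n. Of the 1704 windows of 100 bases, the length of 1 read, in the Serpina3g transcript, 4.64% recurred exactly in other genes, namely Serpina3f, Serpina3h, Serpina3i, Serpina3n and the pseudogene Serpina3e-ps. For Serpina3n this was 0.204% of 1965 windows, and for Slpi, Serpinb2, Serpinb6a, Serpinb9, Serpine2, Serpinf1 and Serpinh1 it was 0. How reads were divided among such copies is not given, so the split among Serpina3f, Serpina3g and Serpina3i is uncertain.

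Serpine2 acts on thrombin and the plasminogen activators. Serpine2, protease nexin 1 (chr1:79794197-79861180, reverse strand), was listed at 643 FPKM in HG+HBS against 1043 FPKM in HG+PC-NVs, a ratio of 1.62 (interval 1.59 to 1.65). It stood second to Serpinf1 among the 9 genes in HG+HBS and first in HG+PC-NVs. Its share of the summed FPKM of the whole family went from 27.7% to 37.6%. The 9 genes together were 976 FPKM higher in HG+PC-NVs, with differences of 588 FPKM for Slpi, 400.3 FPKM for Serpine2 and -109 FPKM for Serpinf1. Summed over all genes, FPKM was itself higher in HG+PC-NVs, at 580717 against 521666 in HG+HBS, a ratio of 1.11.

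The proteases and receptors around these serpins differed in both directions. Of 17 genes of the plasminogen and coagulation system, 12 passed the filter, with a median log2 ratio of -0.043. On the log2(FPKM + 1) scale, 1 of these was more than 2-fold higher and 1 more than 2-fold lower. Procr, the endothelial protein C receptor, was at 35.9 FPKM in HG+HBS against 125 FPKM in HG+PC-NVs, a ratio of 3.47. Plat, tissue plasminogen activator, was at 32.8 and 12.0 FPKM, a ratio of 0.367. Plau, urokinase, was at 68.4 and 63.6 FPKM and its receptor Plaur at 40.1 and 48.5 FPKM. F2r, a thrombin receptor, was at 37.2 and 18.5 FPKM, a ratio of 0.497 that stayed under 2-fold on the log2(FPKM + 1) scale. Thbd, thrombomodulin, was at 30.2 and 54.1 FPKM. Anxa2, which binds plasminogen at the cell surface, had the highest level of the list in HG+HBS, 663 FPKM against 671 FPKM in HG+PC-NVs.

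Serpinb6a and Serpinb9 are intracellular inhibitors, of cathepsin G and of granzyme B respectively. Serpinb6a (chr13:33917918-34002794, reverse strand) was listed at 305 FPKM in HG+HBS against 353 FPKM in HG+PC-NVs, a ratio of 1.16 (interval 1.11 to 1.20), and its log2 ratio of 0.21 became -0.0064 after quantile normalization between the libraries. Of its 4 rows, 1 held 94.7% of the FPKM in HG+HBS against 95.7% in HG+PC-NVs. Serpinb9 (chr13:33003250-33017957, forward strand) was listed at 4.55 and 4.199 FPKM, a ratio of 0.923 whose interval of 0.750 to 1.13 spans 1. Granzyme B itself (Gzmb) rested on at most about 2.03 fragments, under the floor of 3 fragments, in either library.

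Lysosomal cathepsins are the proteases of which several are held by Serpina3g. Their levels in HG+HBS ran from 0.198 FPKM for Ctsw, about 2.97 fragments, to 1495 FPKM for Ctsd. Of 12 in the list, 11 passed the filter and 0 were past 2-fold in either direction, with log2 ratios from -0.31 to 0.88 and a median of -0.043. Ctsl, cathepsin L, was at 655 FPKM in HG+HBS against 1206 FPKM in HG+PC-NVs, a ratio of 1.84. Ctsd, cathepsin D, was at 1495 and 1348 FPKM.

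Serpinf1 and Serpinh1 do not block proteases. Serpinf1 encodes PEDF, a secreted factor known to restrain vessel growth and to favour the survival of neurons, and human PEDF protein was part of the medium of the pericytes from which PC-NVs were made. Serpinf1 RNA (chr11:75409769-75422701, reverse strand) was listed at 828 FPKM in HG+HBS, the highest of the 9 genes, and at 719 FPKM in HG+PC-NVs, a ratio of 0.869 (interval 0.851 to 0.888). Its share of the family's summed FPKM went from 35.7% to 25.9%. Of 5 proteins known to bind PEDF, 2 were higher and 3 lower, 0 of them past 2-fold. Rpsa, the laminin receptor, had the highest level, at 763 and 759 FPKM, and Plxdc1 was at 25.1 and 14.4 FPKM.

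Serpinh1 encodes HSP47, the chaperone of procollagen in the endoplasmic reticulum. The gene (chr7:99345376-99353239, reverse strand) was listed at 304 FPKM in HG+HBS against 309.8 FPKM in HG+PC-NVs, a ratio of 1.02 whose interval of 0.989 to 1.05 spans 1. Its log2 ratio of 0.028 turned to -0.18 after quantile normalization and to -0.0072 with upper-quartile scaling. Its levels and those of Serpinb6a in HG+HBS did not differ beyond counting error, with intervals of 298 to 310 and 298 to 313 FPKM. Of 20 genes of collagen folding, 18 passed the filter, 10 higher and 8 lower, 0 past 2-fold, with a median log2 ratio of 0.042. P4hb, a subunit of prolyl hydroxylase, had the highest level of them, 376 and 527 FPKM. Of 8 fibrillar collagen chains, 7 passed, 2 higher and 5 lower, 0 past 2-fold, with a median of -0.20. Col1a2 was at 312 FPKM in HG+HBS against 198 FPKM in HG+PC-NVs.

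**Figure D4:**
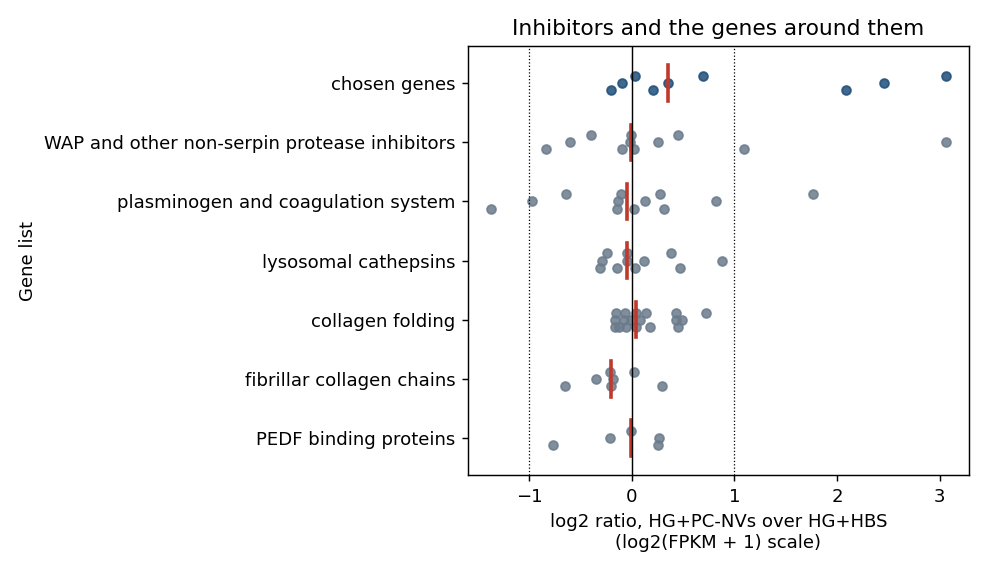
Log2 ratio of HG+PC-NVs over HG+HBS on the log2(FPKM + 1) scale for each gene that passed the filter, by list, with 1 point per gene, a red bar at the median of the list and dotted lines at a 2-fold difference. Slpi appears among the chosen genes and among the non-serpin inhibitors at 3.06, Procr is the point at 1.77 and Plat the point at -1.37.

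Inhibitors outside the serpin family differed in both directions. Of 30 in the list, 11 passed the filter, 5 higher and 6 lower, with a median log2 ratio of -0.0096. Apart from Slpi itself, only Spink2 was past 2-fold on the log2(FPKM + 1) scale among those 11. It was at 0.963 and 3.19 FPKM, or about 5.71 and 16.4 fragments, and passed the filter only through HG+PC-NVs. Itih2 was at 3.65 and 1.60 FPKM, a ratio of 0.439 that stayed under 2-fold on that scale. Cst3, cystatin C, had the highest level of the list, at 874 and 818 FPKM. Wfdc17, which like Slpi carries a WAP domain, was at 56.6 FPKM in HG+HBS against 67.7 FPKM in HG+PC-NVs, or 0.25 as a log2 ratio.

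Across the whole serpin family, 25 of the 63 symbols were listed at 0 in both libraries and 16 reached 1 FPKM in at least 1 library. Of the 15 that passed the filter, 10 were higher and 5 lower in HG+PC-NVs, against 5707 higher and 6078 lower of all 11785 genes. The median log2 ratio of the 15 was 0.34, against -0.0091 for all genes and 0.038 for the family without the filter. The 15 include the 8 chosen serpins, picked with these values known, so nothing is read from that contrast. Among the 7 of the 15 outside the chosen genes, 4 were higher and 3 lower, with 1 past 2-fold, Serpina3i. Serpina3i (log2 values of 0.39 and 1.82) and Serpinb9b (1.36 and 0.87) passed the filter only through the library where each was higher. The filter therefore has a part in these counts. The family summed to 2321 FPKM in HG+HBS against 2777 FPKM in HG+PC-NVs, or 0.445% and 0.478% of each library's total. Serpinf1, Serpine2, Serpinb6a and Serpinh1 held 89.6% and 87.3% of those sums.

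Other serpins at 1 FPKM or more showed both directions too. Serping1, the inhibitor of complement C1, was at 132 and 199.96 FPKM, a ratio of 1.51 (interval 1.44 to 1.59). Serpini1, neuroserpin, was at 1.21 and 2.85 FPKM, a ratio of 2.36 (interval 1.76 to 3.20) that stayed under 2-fold on the log2(FPKM + 1) scale. Clade B was split. Serpinb1a, an inhibitor of neutrophil proteases, was at 15.1 and 7.49 FPKM, a ratio of 0.497 and the lowest log2 ratio of the family, -0.92. Serpinb8 was at 6.10 and 4.02 FPKM and Serpinb9b at 1.57 and 0.827 FPKM, with ratios of 0.659 and 0.526, while Serpinb2 of the same clade was higher. Of 6 clade B genes that passed the filter, 2 were higher and 4 lower.

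**Figure D5:**
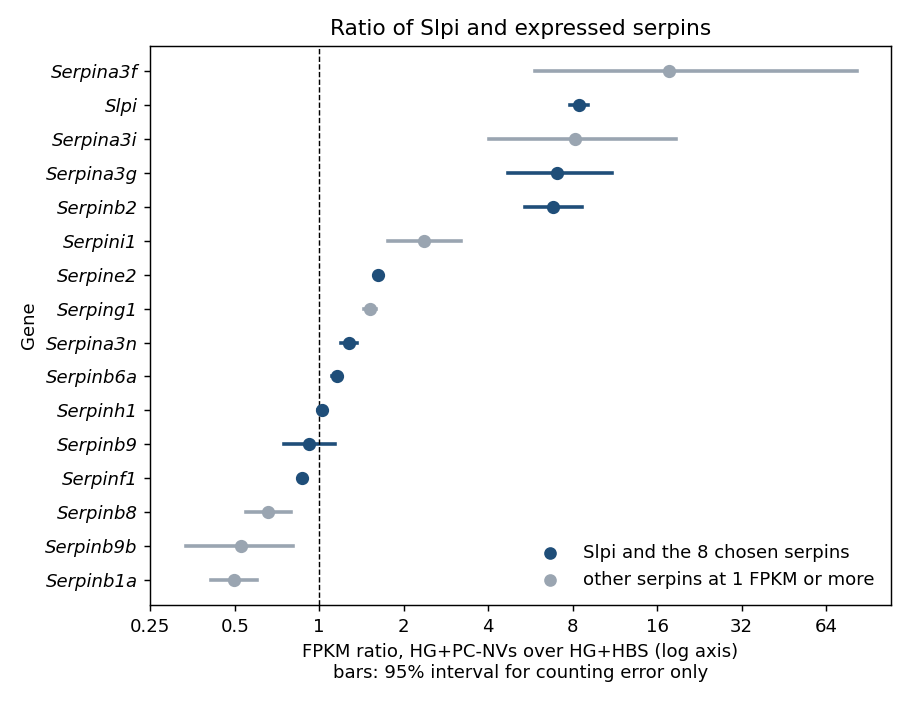
Ratio of FPKM in HG+PC-NVs over HG+HBS (log axis) for Slpi and serpins that reached 1 FPKM in at least 1 library, with bars for the 95% interval of counting error. Serpina3f has the widest bar, from 5.88 to 82.4, and Serpinb1a, Serpinb9b, Serpinb8 and Serpinf1 have bars wholly below 1. Serpinb6a and Serpinh1 lie above 1 here and below it after quantile normalization.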

How the data were processed

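RNA of MCECs was sequenced as 1 library per condition, paired-end at 100 bases. The authors trimmed the reads, mapped them with TopHat to mm10, and took FPKM from Cufflinks and counts from BEDTools, followed by edgeR normalization, described as quantile. Versions and annotation are not given in the sources used here. The authors deposited 1 log2(normalized FPKM + 1) value per transcript row, 33299 rows per library. The unit was read from the range of the values.

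Rows were converted to FPKM and summed per symbol. The deposited normalization was kept as the main setting, and a further quantile step was an alternative. Sorted values of the libraries were more than 0.05 log2 apart at 2318 of 33299 ranks. Among 2189 genes with a single transcript over 1500 nt, FPKM times (length minus 220 nt) gave multiples within 0.1 of a whole number for 79.7% and 79.5% of values under 4.5 fragments. The 220 nt was chosen from these same values, as the offset among 31 tried (0 to 300 nt) with most values in 1 bin, so the shares are no independent check of it. An offset of 150 nt came close (80.6% and 79.2%). With it the interval of the Slpi ratio was 7.84 to 9.08, with 0 nt 7.87 to 9.05, and the intervals of Serpinb9 and Serpinh1 were the only ones among the 9 members to span 1 with each of the 3 offsets, an alternative added after seeing the data. The 220 nt offset set fragments per gene, their Clopper-Pearson and Poisson intervals and the floor of 3 fragments. Member lengths are means of GENCODE M21 transcripts tied to RefSeq. In 8 of 9 members the number of rows equals that of curated RefSeq transcripts.

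No test was made, with 1 library per condition. Genes passed the filter where their log2 values averaged 1 or more. The members and lists were chosen with earlier results of these data known. Genes named are the members, serpins at 1 FPKM or more, the list genes past 2-fold with the highest of each list, marker summaries and the 5 genes nearest to Slpi; the further list genes given with values (such as Plau, Thbd, Ctsl and Col1a2) and the single markers were picked after their values were seen. The values of 1 serpin outside the members are not reported here. Promoters are from RefSeq (GRCm38.p6), with all 9 members matched. Protein sequences were not used here. Alternatives covered normalization, pseudocount, rows, filter and threshold. Calculations were tested on simulated data. Software was Python 3.11.15 with scipy 1.17.1, numpy 2.4.6, matplotlib 3.10.9 and pandas 2.3.3.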

Additional observations from a re-analysis of the deposited data

How the results depend on the processing

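Slpi, Serpina3g and Serpinb2 were the 3 members past 2-fold under each normalization, the pseudocount of 0.1, the highest row of a symbol, no filter and a 4-fold threshold. With a mean of 3 or more, which leaves 7 members, 2 were (Slpi and Serpinb2). Dropping the filter could not change the members past 2-fold, as all 9 members pass it. Nor could the highest row change Slpi or Serpina3g, which have 1 row each. The log2 ratio of Slpi was 2.92 after quantile normalization, a shift from the reported value larger than the counting margin (the distance from the ratio to the bounds of its interval, in log2), and shifted by less under the other 4 alternatives. Of 40 alternative log2 ratios of the other members, 34 shifted by no more than that margin and 6 by more. Among the 34 are highest-row values of members with 1 row, which could not shift. Median centring took the same median of -0.0091 from every gene, so the 34 are no measure of stability. With a pseudocount of 1, the log2 ratio of Serpina3g (2.09) itself lies below the interval of the plain ratio, 2.23 to 3.46 in log2. The 6 that shifted by more were Serpinb6a and Serpinh1 (with quantile normalization) and Serpine2 and Serpinf1 (with that and upper-quartile scaling). Serpine2 ran from 0.54 to 0.71 and Serpinf1 from -0.42 to -0.19. The sign turned for Serpinb6a with the first and for Serpinh1 with both, as given above. Genes more than 2-fold higher numbered 281, but 160 with a mean of 3 or more and 75 at 4-fold, and those lower numbered 94, but 190 with a pseudocount of 0.1, 49 with a mean of 3 or more and 7 at 4-fold. The stricter filter leaves 7584 genes; the cause of the other shifts was not tested. The median log2 ratio of the serpin family was 0.34, and 0.038 without a filter, over 38 genes. No paired analysis was possible because each condition is a lone library, and leaving out a replicate was not possible either. Depth limits genes of few fragments, such as Serpina3f, Spink2 and Serpinb9b, whose intervals are wide.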
